A study of Homo sapiens and Mus musculus with 12 samples.

Results

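Integrins are cell-surface receptors made of an alpha and a beta chain, through which a lymphocyte holds on to other cells and to the matrix around it. The genes described here encode the alpha chains alpha M (Itgam, CD11b), alpha L (Itgal, CD11a), alpha 2 (Itga2, CD49b) and alpha 1 (Itga1, CD49a) and the beta 2 chain (Itgb2, CD18), with the human counterparts ITGAM, ITGAL, ITGA2, ITGA1 and ITGB2. They were taken by gene symbol from the RNA-seq count tables of mouse and human NK cells. The 5 mouse symbols were found on 6 of 22021 rows, because Itgam stands on 2 rows, and the 5 human symbols were found on 5 of 18304 rows. All of these rows had enough counts for the test, among 13189 mouse and 12727 human rows tested.

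The mouse libraries came from NK cells sorted from the spleens of C57BL/6J mice aged 8 to 12 weeks, with 3 libraries from WT mice carrying Ehmt2flox/flox and 3 from KO mice carrying Ehmt2flox/flox together with Ncr1iCre, a Cre made in cells that express Ncr1 (NKp46). Ehmt2 encodes the histone methyltransferase that writes H3K9 dimethylation, and floxed alleles were shared by WT and KO. The human libraries came from NK92MI, a human NK cell line engineered to supply itself with IL-2, treated with the EHMT2 inhibitor BIX-01294 or with its solvent DMSO, with 3 libraries each. The comparisons ask how loss or inhibition of EHMT2 changes RNA levels in NK cells. Nothing in the labels says that the libraries of a group came from separate animals or cultures, so that p-values measure the spread between these samples only.

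In NK cells, alpha L and beta 2 form LFA-1, which binds ICAM proteins on a target cell and holds the contact through which the target is killed. Alpha M and beta 2 form Mac-1, a receptor for ICAM1, fibrinogen and complement fragments that is abundant on myeloid cells and, on mouse NK cells, is gained during maturation together with the loss of CD27. Alpha 2 and alpha 1 both pair with beta 1 and bind collagens. Alpha 2 is the antigen seen by the DX5 antibody on circulating mouse NK cells, and alpha 1 marks tissue-resident NK cells and type 1 innate lymphoid cells (ILC1).

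Of the human genes that rose under BIX-01294, ITGAM and ITGA1 had an entry among the RefSeq promoter sequences (GRCh38.p14), as did ITGA2, which had the fewest counts. They are shown to set the start regions of an alpha chain shared with myeloid cells beside those of the collagen-binding chains. Each sequence covers the 250 bases before the gene start of RefSeq, which lie at chr16:31259725-31259974 for ITGAM, chr5:52787666-52787915 for ITGA1 and chr5:52989102-52989351 for ITGA2, all on the plus strand. The GENCODE starts of ITGAM and ITGA2 given with the gene positions lie a few bases inside these windows. In GENCODE, ITGA1 starts at the same base and on the same strand as the gene PELO, so the ITGA1 window precedes both genes. Capitals mark the ETS core AGGAAG and the GC box GGGCGG, read on either strand.
ITGAM: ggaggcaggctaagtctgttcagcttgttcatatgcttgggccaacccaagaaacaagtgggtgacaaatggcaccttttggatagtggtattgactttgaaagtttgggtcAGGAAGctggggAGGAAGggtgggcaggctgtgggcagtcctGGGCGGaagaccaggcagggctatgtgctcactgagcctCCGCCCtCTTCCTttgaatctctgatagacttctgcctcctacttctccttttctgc
ITGA1: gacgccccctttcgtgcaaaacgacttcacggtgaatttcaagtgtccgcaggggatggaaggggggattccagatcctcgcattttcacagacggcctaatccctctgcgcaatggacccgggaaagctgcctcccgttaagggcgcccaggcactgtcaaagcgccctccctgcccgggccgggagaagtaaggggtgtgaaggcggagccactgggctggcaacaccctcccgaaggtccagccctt
ITGA2: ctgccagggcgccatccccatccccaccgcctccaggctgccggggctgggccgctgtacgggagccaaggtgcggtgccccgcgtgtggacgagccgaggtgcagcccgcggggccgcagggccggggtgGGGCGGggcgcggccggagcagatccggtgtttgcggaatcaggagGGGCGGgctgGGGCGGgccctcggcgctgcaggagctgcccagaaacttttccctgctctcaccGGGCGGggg
The ITGAM sequence held 3 ETS cores, at 138, 126 and 50 bases before the start, and 2 GC boxes. The ITGA2 sequence held 4 GC boxes and no ETS core, and the ITGA1 sequence held neither. The RUNX core TGTGGT and the TATA box TATAAA, also searched on both strands, were in none of them. Among 35116 RefSeq promoter sequences of this length, 28.7% held AGGAAG, 42.6% GGGCGG, 11% TGTGGT and 10.7% TATAAA, so that the motifs in ITGAM and ITGA2 are common letters in such windows. GC content was 53.2% in ITGAM, 62.0% in ITGA1 and 76.4% in ITGA2. ITGAL and ITGB2 were not matched, which leaves 3 of 5 human genes with a sequence, and the mouse genes were not matched.

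The alpha chains lie in pairs in both genomes. Itgal (GRCm38 chr7:127296260-127335138) and Itgam (chr7:128062640-128118491) are 727.5 kb apart on the plus strand, and ITGAL (GRCh38 chr16:30472658-30523567) and ITGAM (chr16:31259967-31332892) are 736.4 kb apart. Itga2 (chr13:114833081-114932100) and Itga1 (chr13:114953096-115101964) are neighbours on the minus strand with 21 kb between them, and ITGA1 (chr5:52787916-52959209) and ITGA2 (chr5:52989340-53094779) have 30.1 kb between them. Itgb2 (chr10:77530252-77565708) and ITGB2 (chr21:44885953-44931989, minus strand) lie on other chromosomes. Counts cover whole genes, and the annotation used here (GENCODE) places a same-strand gene, Gm49368, over 68.67% of the exon bases of Itgam. That gene was not listed under its symbol, and which annotated gene the second Itgam row holds was not identified.

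Library totals were 25891680 to 37438868 counts in mouse and 16579469 to 17165446 in human. Ehmt2, the deleted gene, was lower in KO with 171, 143 and 137 CPM (counts per 1000000 counts of the library after TMM normalization) against 275, 284 and 286 in WT, a log2 fold change of -0.91 ± 0.10 (SE, edgeR adjusted p = 0.0162, n = 3 per group), and EHMT2 RNA was lower under BIX-01294 (-0.58 ± 0.08, edgeR adjusted p = 0.000101). All 12 NK cell markers searched were counted in each species. In KO, 8 of the 12 passed as higher (edgeR adjusted p under 0.05), where 4.44% of all genes tested passed as higher and 7.43% as lower. The summed level of these markers was 5689, 9570 and 5942 CPM in WT replicates 1, 2 and 3 and 10835 to 12601 CPM in KO, so that WT replicate 2, also the library with the fewest counts, stood between the other WT libraries and KO. Markers of other cells were lower in KO for some lists, with overlap between the groups for several. The sum of 12 macrophage and monocyte markers was 2586 to 6032 CPM in WT and 1557 to 2596 CPM in KO (6 of 12 passed as lower), and that of 12 neutrophil markers 231 to 1725 CPM and 57.7 to 257 CPM (2 of 11 tested passed as lower), both with overlap. That of 10 platelet markers was 1796 to 2908 CPM and 1418 to 1576 CPM (2 of 10 passed as lower) and that of 6 dendritic cell markers 338 to 556 CPM and 141 to 267 CPM (2 of 6 passed as lower), without overlap. The 8 B cell markers summed to 534 to 1547 CPM and 90.1 to 497 CPM, where neither edgeR nor DESeq2 called any of the 8 (6 were lower at an unadjusted edgeR p under 0.05). The 8 T cell markers summed to 155 to 260 CPM in WT and 97.5 to 219 CPM in KO. Of these 8, 6 were lower, with a list median of -0.74, and Cd3g alone passed, as higher (0.59, edgeR adjusted p = 0.0452). DESeq2 called 2 of the 8, Cd3g and the lower Cd4 (-1.21 by edgeR, DESeq2 adjusted p = 0.0453), where it called 22.2% of all genes it tested.

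**Figure D1:**
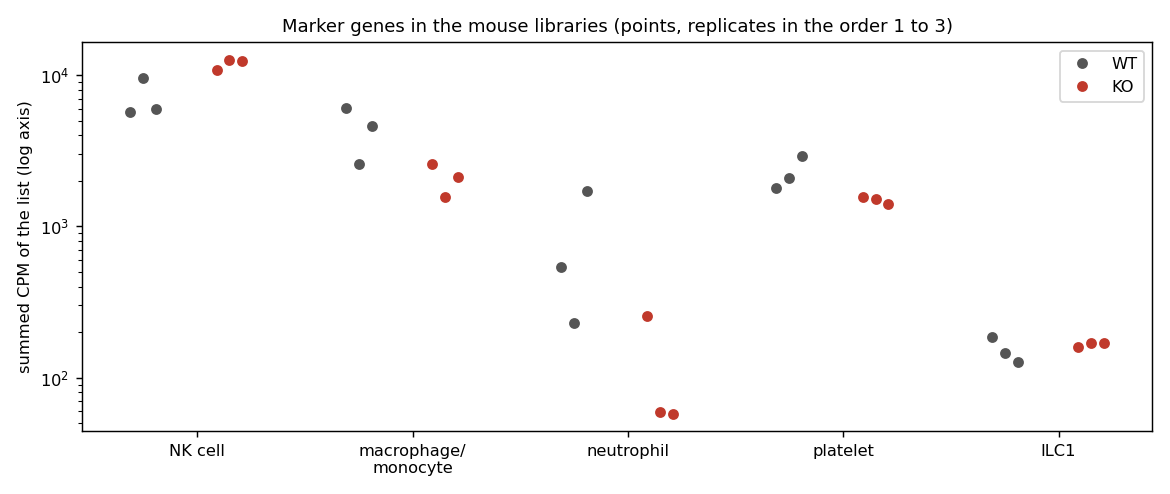
Summed CPM of 5 marker lists (log axis) in each mouse library, with WT in grey and KO in red and replicates in the order 1 to 3. The NK cell sum reached 5689 to 9570 CPM in WT and 10835 to 12601 CPM in KO, with no overlap, and the ILC1 sum overlapped between the groups at 128 to 187 CPM in WT and 158 to 171 CPM in KO.

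Per kilobase of the principal transcript, beta 2 was the most abundant of the integrin RNAs in WT mouse NK cells. Itgb2 reached 537 ± 62.6 CPM per kb (mean ± SD, n = 3), followed by Itgal with 277 ± 50.4 and Itgam with 25.5 ± 1.94. The collagen-binding chains came last, with Itga2 at 12 ± 4.1 and Itga1 at 0.689 ± 0.190 CPM per kb. No neighbours in this order overlapped among the WT libraries, although the libraries of Itga2 spread most. Itgb1, the partner of alpha 2 and alpha 1, stood at 138 ± 16.0 CPM per kb, between Itgal and Itgam. Gm49368 overlaps 68.67% of the exon bases of Itgam, and the effect of this overlap on the counted level of Itgam was not tested.

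In DMSO-treated NK92MI cells the order was different. ITGAL led with 304 ± 9.76 CPM per kb (mean ± SD, n = 3), above ITGB2 with 87.6 ± 6.42, and ITGA1 followed with 44.2 ± 1.40. ITGAM stood at 12.1 ± 1.40 and ITGA2 at 0.132 ± 0.0632 CPM per kb, and again no neighbours overlapped. The rarest chain was thus Itga1 in mouse splenic NK cells and ITGA2 in NK92MI. ITGB1 (84.9 ± 0.658) was within the range of ITGB2. Lengths taken over all exons of a gene gave the same order of the 5 genes in each species. With those lengths, however, the mean of ITGB1 (24.9 CPM per kb) lay below those of ITGB2 (38.1) and ITGA1 (25.6). The tables were normalized separately, so that levels are compared within a species only.

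**Figure D2:**
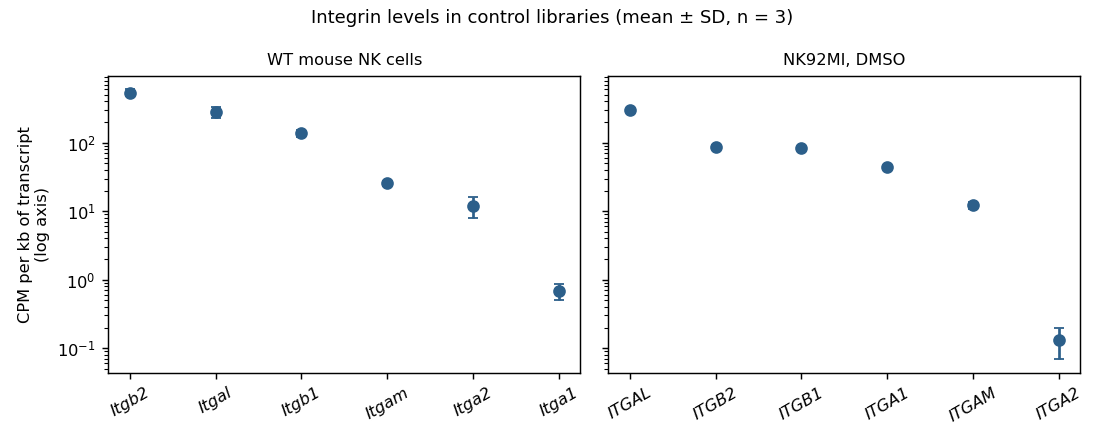
Level in control libraries of the 5 integrin genes and of the beta 1 gene in CPM per kb of principal transcript (log axis), as mean ± SD over 3 libraries, for WT mouse NK cells (left) and DMSO-treated NK92MI cells (right). Itgb2 (537) and Itgal (277) led in mouse and ITGAL (304) in NK92MI, where ITGA2 (0.132) was lowest.

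In Ehmt2 KO NK cells, Itgam RNA rose 1.54-fold, and it was the only row among the 6 that passed the test, an edgeR quasi-likelihood adjusted p under 0.05. At this threshold 4.44% of all mouse genes tested passed as higher and 7.43% as lower, 11.9% in all. Itgal, Itgb2 and Itga2 had log2 fold changes of 0.61, 0.48 and 0.61 but did not pass, and Itga1 had 0.03. At the study's thresholds edgeR called 0% of mouse genes, whereas DESeq2 called 10.7%, among them Itgam (0.62, adjusted p = 8.96e-07) and Itgal (0.60, adjusted p = 0.00477). All of these directions are relative to the total RNA of a library. With libraries scaled to the summed NK cell markers instead, the median of all genes tested moved from 0.01 to -0.82 and Itgam to -0.19. Relative to that median, Itgam was at 0.61 with TMM and 0.63 with the marker scaling. All 12 of these markers were higher in KO, with a list median of 0.79, so that scaling to them lowers the values of other genes. The paper reports Prf1, Il2rb and Tbx21, which are among these markers, as raised in KO NK cells by RT-qPCR. The marker scale therefore cannot separate NK cell content from a response of the markers to the knockout. In such bulk samples a change in the share of cells that make an RNA and a change in the RNA made per cell cannot be told apart.

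Itgam, the alpha chain of Mac-1, was at 111, 128 and 116 CPM in WT replicates 1, 2 and 3. In KO it was at 178, 175 and 195 CPM (4100, 3308 and 4334 counts in WT and 6557, 6492 and 7096 in KO). Every KO library was above every WT library, as for 19.1% of all genes tested, and the spread within each group was small beside the distance between them. On the log2 scale the change was 0.62 ± 0.09 (SE, 95% confidence interval 0.42 to 0.83, edgeR adjusted p = 0.0239), which placed Itgam at the 95.3rd percentile of fold changes among genes tested. The call was lost without some libraries: without WT replicate 1, WT replicate 3, KO replicate 2 or KO replicate 3 the adjusted p of edgeR was 0.0606, 0.099, 0.103 and 0.131, at log2 fold changes of 0.58 to 0.66. Macrophages and neutrophils also express Itgam. In KO, 6 of 12 macrophage and monocyte markers and 2 of 11 neutrophil markers tested passed as lower, where 7.43% of all genes did. The list medians were -1.80 and -3.72 on the log2 scale. The part of macrophages and neutrophils in the result was not tested. Itgam was lowest in WT replicates 1 and 3, the libraries with the lowest summed NK cell markers (5689 and 5942 CPM). The part of NK cell content in its values was not tested either. The second Itgam row held 9 to 16 counts in WT and 17 to 19 in KO, a log2 fold change of 0.47 ± 0.38 (edgeR adjusted p = 0.403), and adding it to the first row left the value of Itgam unchanged at 2 decimals, at 0.62.

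Itgal, the alpha chain of LFA-1, was at 1256, 1741 and 1327 CPM in WT libraries, against 1758, 2451 and 2378 CPM in KO libraries. The groups did not overlap, as for 19.1% of genes tested with KO higher, but WT replicate 2 and KO replicate 1 lay close together. The log2 fold change was 0.61 ± 0.18 (SE, 95% confidence interval 0.19 to 1.03), at an edgeR adjusted p of 0.0627. With DESeq2 the adjusted p was 0.00477, in a test that called 22.2% of genes. Without WT replicate 2 edgeR gave 0.77 and an adjusted p of 0.0179, and it called 3530 genes, against 1565 with all libraries. Without KO replicate 1 the adjusted p of edgeR was 0.0367, and without any other single library it was 0.176 to 0.196.

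Itgb2, the beta chain that both LFA-1 and Mac-1 need to reach the surface, was at 1490, 1811 and 1488 CPM in WT and at 1999, 2346 and 2341 CPM in KO. Again the groups did not overlap (as for 19.1% of genes tested with KO higher), with WT replicate 2 and KO replicate 1 closest to each other. The log2 fold change was 0.48 ± 0.13 (SE, 95% confidence interval 0.18 to 0.79), at an edgeR adjusted p of 0.0526, just outside the threshold, and DESeq2 gave an adjusted p of 0.00204, in a test that called 22.2% of genes. Itgb2 and Itgal, like Itgam and Itga2, were lowest in WT replicates 1 and 3, the libraries with the lowest summed NK cell markers (5689 and 5942 CPM). The part of NK cell content in these values was not tested.

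Itga2, the DX5 antigen, was at 59.3, 117 and 79.7 CPM in WT and at 96.2, 145 and 148 CPM in KO. The groups overlapped, because WT replicate 2 lay above KO replicate 1. Itga2 had a log2 fold change of 0.61 ± 0.26 (SE, 95% confidence interval 0.004 to 1.21), at an edgeR adjusted p of 0.138, and DESeq2 gave an adjusted p of 0.0592. Without WT replicate 2 edgeR gave 0.90 at an adjusted p of 0.0205. Without any other single library the adjusted p of edgeR was 0.0765 to 0.337. Platelets express Itga2 as well, and the platelet marker sums were below WT in all 3 KO libraries.

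Itga1 was rare in all 6 libraries, with 9.93, 6.05 and 6.69 CPM in WT and 7.21, 8.19 and 7.76 CPM in KO (156 to 368 counts). The KO libraries lay inside the range of WT, whose replicate 1 was highest. Itga1 had a log2 fold change of 0.03 ± 0.21 (SE, 95% confidence interval -0.45 to 0.51, edgeR adjusted p = 0.933), so that a change of up to about 0.5 in either direction remained within the error. None of the 6 ILC1 markers passed in edgeR (1 was higher and 2 lower at an unadjusted p under 0.05), and the median log2 fold change was 0.19. DESeq2 called 2 of them, Tnfsf10 and Inpp4b, where it called 22.2% of all genes it tested.

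**Figure D3:**
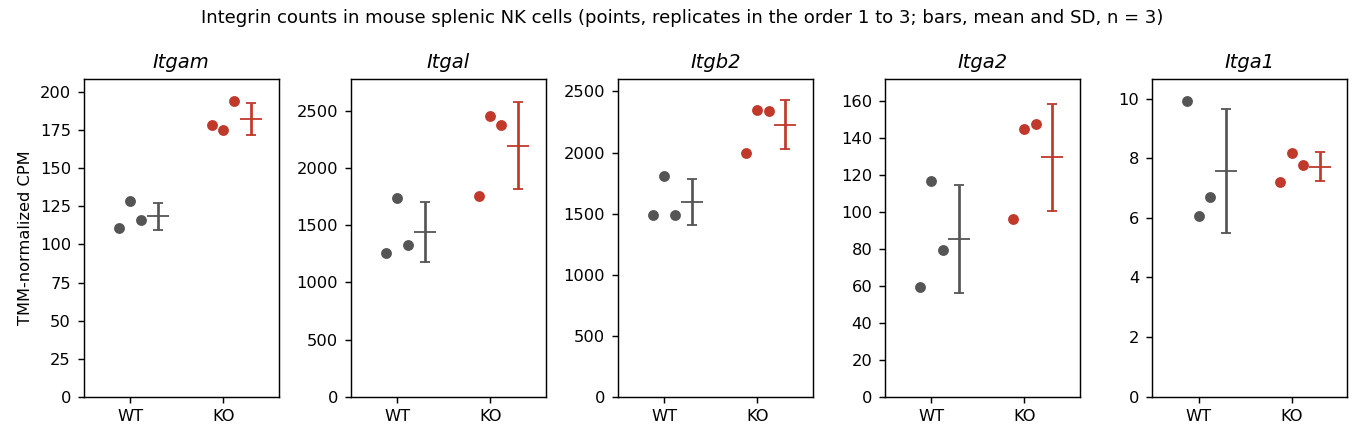
CPM (counts per 1000000, TMM-normalized) of the 5 integrin genes in each WT (grey) and KO (red) mouse library, with the mean and SD of 3 replicates as bars. KO was higher without overlap for 19.1% of all genes tested, among them Itgam, Itgal and Itgb2, of which Itgam alone passed the test. With libraries scaled to NK cell markers the log2 fold changes of these genes were -0.19, -0.19 and -0.33, where the median of all genes tested was -0.82. The markers used for that scaling were themselves higher in KO.

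Ratios within a library do not depend on how libraries are scaled. The log2 ratio of Itgam to Itgb2 counts was -3.75 ± 0.07 in WT and -3.61 ± 0.13 in KO (mean ± SD, n = 3), a difference of 0.14 (two-sided exact permutation p = 0.2, adjusted p = 0.533 over 4 ratios, where 0.1 is the smallest p that 3 against 3 libraries can give). The ratio of Itgal to Itgb2 differed by 0.12 (exact permutation p = 0.3, adjusted p = 0.533) and that of Itgam to Itgal by 0.02 (exact permutation p = 1). The ratio of Itga2 to Itga1 was 3.47 ± 0.85 in WT and 4.04 ± 0.27 in KO (exact permutation p = 0.4, adjusted p = 0.533), a difference of 0.57 that was 0.12 without WT replicate 1 and 0.97 without WT replicate 2. In all 4 ratios the libraries of WT and KO overlapped, so no shift among these chains was detectable at this number of libraries.

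The genes whose levels across the 6 mouse libraries were most like those of the integrin genes, by the root mean square difference of centred log2 CPM (prior count 2), lay within 0.03 to 0.09 of them. For Itgam they were Gpr160, Pced1b and Trim13, at 0.03, 0.03 and 0.04 (the median gene was at 0.36). For Itgal they were Gramd1b, Nbeal2 and Nsmf, and for Itgb2 they were Tyk2, a kinase of cytokine receptors, Tor4a and Lta4h, at 0.03 to 0.04. For Itga2 they were A430078G23Rik, Setbp1 and Map3k13, and for Itga1 Slc41a2, Hsp90b1 and Fkbp4, at 0.07 to 0.09. These libraries also differ in depth and in the markers of NK and other cells, so these distances are a description.

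In BIX-01294-treated NK92MI cells, 3 of the 5 integrin genes passed the test (edgeR adjusted p under 0.05), with ITGAM and ITGA1 higher and ITGAL lower. At this threshold 18.4% of all human genes tested passed as higher and 18.4% as lower, 36.9% in all. None of the 3 reached the study's thresholds, an adjusted p under 0.01 with an absolute log2 fold change over 0.5, which 11.7% of genes tested did, 6.24% as higher and 5.43% as lower. ITGB2 and ITGA2 did not pass. DESeq2 also called 3 of the 5 genes, where it called 32.7% of the genes it tested.

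ITGAM was at 59.9, 62.0 and 49.6 CPM in the DMSO columns and at 72.3, 79.4 and 82.8 CPM in BIX-01294 replicates 1, 2 and 3. Every treated library was above every DMSO library, as for 24.1% of genes tested. The log2 fold change was 0.45 ± 0.09 (SE, 95% confidence interval 0.26 to 0.64, edgeR adjusted p = 0.00138), a fold of 1.37. Monocyte markers, which would accompany ITGAM in myeloid cells, summed to 2.22 to 3.55 CPM in DMSO and 4.25 to 5.18 CPM under BIX-01294 over the 4 of 9 listed in the table, most of it CSF1R, with CD14 at 0 to 0.548 CPM.

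ITGAL, the most abundant alpha chain of the line, was at 1608, 1558 and 1508 CPM in DMSO and at 1230, 1245 and 1221 CPM under BIX-01294. All treated libraries lay below all DMSO libraries, as for 23.9% of genes tested, and they differed from each other by less than the DMSO columns did. ITGAL fell by 0.34 ± 0.06 on the log2 scale (SE, 95% confidence interval -0.46 to -0.22, edgeR adjusted p = 0.00037), to 0.791 of the DMSO level. In the mouse libraries Itgal had the opposite sign (0.61, not past the test), and that difference between experiments of different species and agents was not tested.

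ITGB2, the partner of both, was at 268, 302 and 266 CPM in DMSO and at 274, 260 and 296 CPM under BIX-01294. The groups overlapped over almost their whole range. The log2 fold change was -0.01 ± 0.07 (SE, 95% confidence interval -0.16 to 0.14, edgeR adjusted p = 0.93), so that a change larger than about 0.16 in either direction lay outside the interval.

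ITGA1, which binds collagen as alpha 1 beta 1, was at 467, 464 and 491 CPM in DMSO and at 653, 682 and 566 CPM under BIX-01294. The groups did not overlap, as for 24.1% of genes tested with BIX-01294 higher, and BIX-01294 replicate 3 was nearest to DMSO. The log2 fold change was 0.42 ± 0.07 (SE, 95% confidence interval 0.26 to 0.57, edgeR adjusted p = 0.00051), a fold of 1.34. ITGA1 shares 2.691% of its exon bases with PELO on the same strand and 7.468% with the antisense gene ITGA2-AS1, and whether counting used the strand is not stated.

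ITGA2 had 8, 23 and 22 counts in DMSO and 29, 34 and 20 under BIX-01294, or 0.466, 1.35 and 1.30 CPM and 1.77, 2.0 and 1.18 CPM. The groups overlapped, and DMSO column 1 held the fewest counts. ITGA2 had a log2 fold change of 0.67 ± 0.39 (SE, 95% confidence interval -0.16 to 1.49, edgeR adjusted p = 0.196), and without DMSO column 1 it was 0.31, so no change was detectable at this depth. ITGB1, the partner of alpha 1 and alpha 2, was at 363, 365 and 360 CPM in DMSO and at 323, 345 and 318 CPM under BIX-01294, a log2 fold change of -0.14 ± 0.06 that did not pass (edgeR adjusted p = 0.0788).

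**Figure D4:**
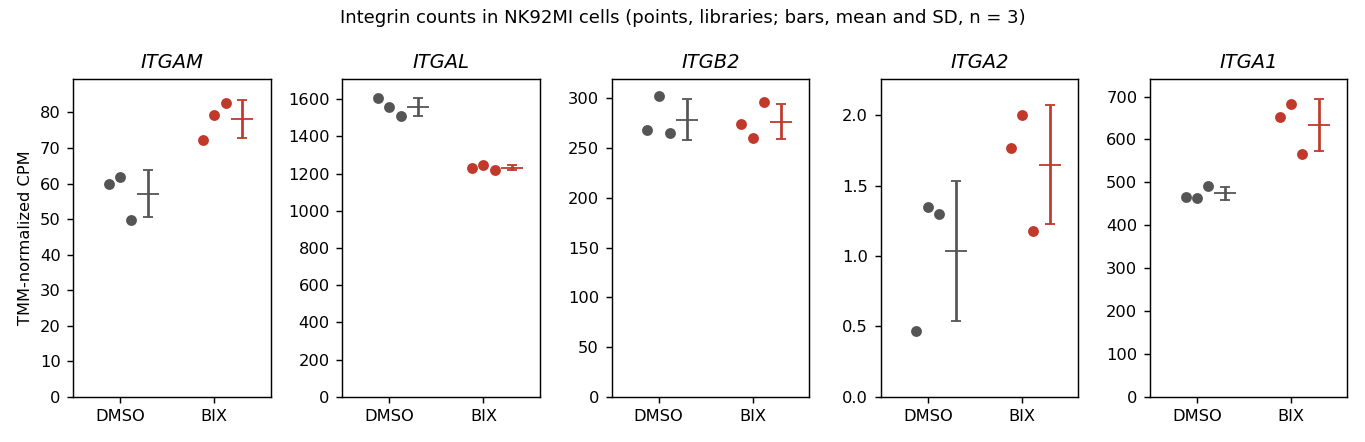
CPM (counts per 1000000, TMM-normalized) of the 5 integrin genes in each DMSO (grey) and BIX-01294 (red) library of NK92MI cells, with the mean and SD of 3 libraries as bars. ITGAM and ITGA1 were higher and ITGAL lower in every treated library than in every DMSO library, while ITGB2 and ITGA2 overlapped. Groups that did not overlap were seen for 24.1% of all genes tested as higher and 23.9% as lower.

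The chains that share beta 2 changed unequally in NK92MI cells. The log2 ratio of ITGAM to ITGAL counts was -4.77 ± 0.14 in DMSO and -3.98 ± 0.10 under BIX-01294 (mean ± SD, n = 3), a difference of 0.79. ITGAM relative to ITGB2 differed by 0.46 and ITGAL relative to ITGB2 by -0.33. In these 3 ratios the groups did not overlap, and each had a two-sided exact permutation p of 0.1, the smallest that 3 against 3 libraries can give, and an adjusted p of 0.133 over 4 ratios, so that this test could not pass 0.05. The ratio of ITGA2 to ITGA1 differed by 0.35 and overlapped (exact permutation p = 0.6).

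Nearest in level across the 6 human libraries were ITPKC, CDPF1 and BTN2A2 to ITGAM, at a root mean square difference of 0.04 in centred log2 CPM (the median gene was at 0.31). RBM12, NPRL3 and CDCA7 were nearest to ITGAL at 0.02, and SNRNP48, ZBTB24 and PIAS1 to ITGA1 at 0.01 to 0.03. DAXX, IDH3B and KIF22 were nearest to ITGB2 at 0.02. The sparse counts of ITGA2 had no close neighbour, with RPS2P53, LRP11 and TNFSF4 at 0.14 to 0.23.

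The other integrin chains were set beside these genes. Of 12 other alpha chains tested in mouse, 1 passed as lower, where 7.43% of all genes did, a share near the background. Itga9 fell from 62.5 to 14.2 CPM, a log2 fold change of -2.13 ± 0.51 (edgeR adjusted p = 0.0433). Of 5 other beta chains tested, 1 passed as higher and 1 as lower, where 4.44% and 7.43% of all genes did. Itgb7, which pairs with alpha 4 and alpha E in gut homing, rose by 0.44 ± 0.10 (edgeR adjusted p = 0.0429). Itgb5, a vitronectin receptor chain, fell by 0.75 ± 0.12 on the log2 scale (edgeR adjusted p = 0.0275). Neither passed without WT replicate 1, WT replicate 3, KO replicate 2 or KO replicate 3. The median log2 fold change was -0.02 over the alpha chains and -0.48 over the beta chains, against 0.01 over all genes tested. Itgb1, the partner of alpha 1 and alpha 2, had 0.24 ± 0.13 (edgeR adjusted p = 0.211). DESeq2 called 5 of the other alpha chains and 3 of the beta chains, in both directions, where it called 22.2% of all genes it tested in either direction. Macrophage and monocyte markers and neutrophil markers were lower beside Itga9 and Itgb5 (list medians of -1.80 and -3.72), and their part in these values was not tested. These mouse directions are on the TMM scale. On the scale of the NK cell markers, which were themselves higher in KO, the median of all genes lies at -0.82.

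In NK92MI cells, 5 of 8 other alpha chains passed, where 36.9% of all genes did. ITGAD, which also pairs with beta 2, fell by 1.06 ± 0.09 on the log2 scale, from 58.9 to 28.2 CPM (edgeR adjusted p = 1.59e-06), and ITGAX (CD11c) fell by 0.36 ± 0.07. ITGA4, which binds VCAM1 with beta 1, fell by 0.45 ± 0.07, whereas ITGA8 rose by 0.74 ± 0.10 and ITGAE, which binds E-cadherin with beta 7, by 0.39 ± 0.10. Of the 4 alpha chains that pair with beta 2, ITGAL, ITGAX and ITGAD were thus lower and ITGAM higher. Of 3 other beta chains, ITGB5 passed with -0.38 ± 0.12 (edgeR adjusted p = 0.0264). The medians were 0.15 for the alpha and -0.14 for the beta chains, against -0.01 for all genes tested.

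**Figure D5:**
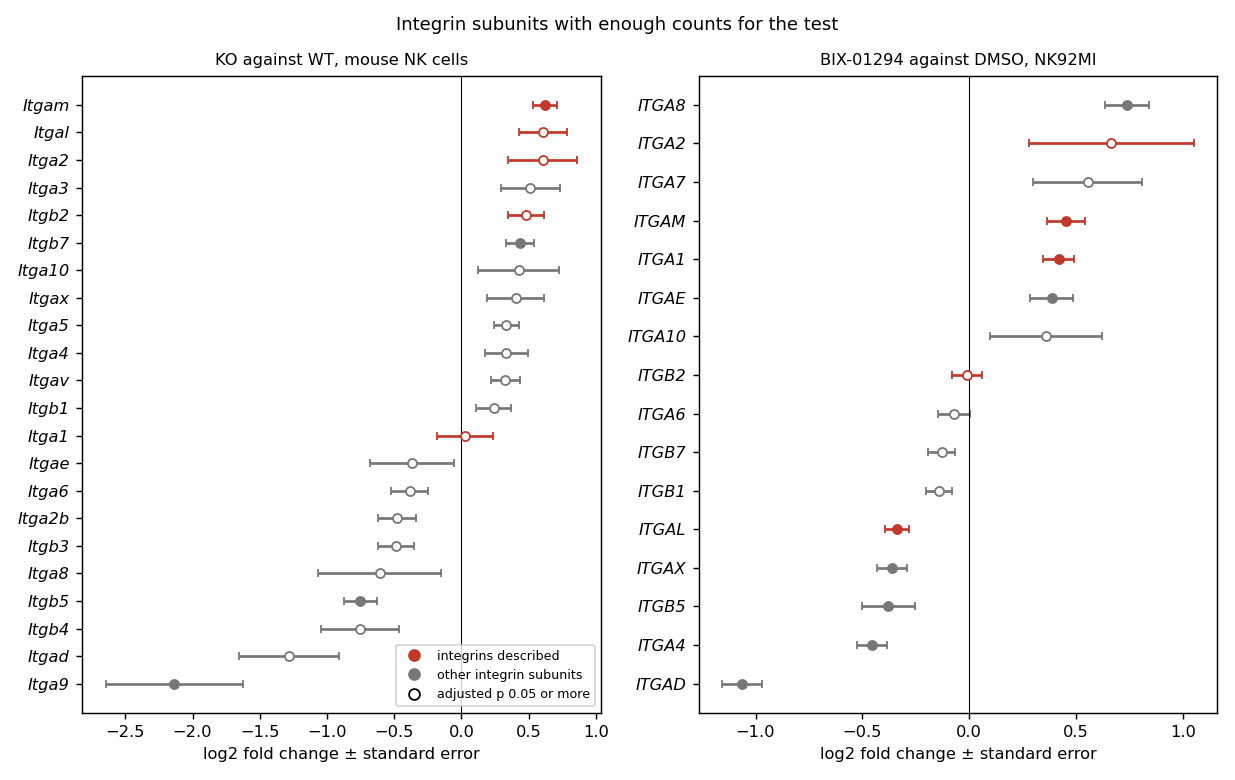
Log2 fold change ± SE of every integrin gene with enough counts for the test, KO against WT in mouse NK cells (left) and BIX-01294 against DMSO in NK92MI (right). Red marks the integrin genes described here and grey the other integrin genes. Filled points passed an edgeR adjusted p under 0.05, from -2.13 for Itga9 to 0.62 for Itgam in mouse and from -1.06 for ITGAD to 0.74 for ITGA8 in NK92MI. Mouse values are on the TMM scale. Scaled to NK cell markers, which were themselves higher in KO, Itgam was at -0.19, where the median of all genes tested was -0.82.

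Integrins bind only after talin and kindlin reach their tails, under the control of the small GTPase RAP1, and they are then tied to actin. Of 26 such activation and linkage genes in mouse, 2 passed, both lower, a share near the 7.43% of all genes that passed as lower. They were Fyb (ADAP), an adaptor, with -0.37 ± 0.09, and Actn1, an actin crosslinker, with -1.25 ± 0.27 (edgeR adjusted p = 0.0413 and 0.038). Actn1 varied in WT (318 ± 124 CPM, mean ± SD). Macrophage and monocyte markers and platelet markers were lower in KO too (list medians of -1.80 and -0.59), and their part in these values was not tested. The talin gene Tln1 had 0.07 ± 0.17 and the kindlin gene Fermt3 -0.12 ± 0.10, and the median of the list was 0.07. In NK92MI cells 14 of 25 passed, 11 of them lower, with a list median of -0.08, where 36.9% of all genes passed and 18.4% as lower. The adhesion plaque genes PXN and ZYX fell by 1.18 ± 0.07 and 0.77 ± 0.07, TLN1 by 0.64 ± 0.07, FERMT3 by 0.39 ± 0.07, the kinase gene PTK2B by 0.43 ± 0.06 and the adaptor gene SKAP1 by 0.36 ± 0.06 on the log2 scale. The 3 higher genes were CYTIP (0.50 ± 0.06), RAP1B (0.28 ± 0.06) and SKAP2 (0.30 ± 0.08).

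Genes of integrin ligands were counted in the same libraries, without saying which cells made them. In mouse, 4 of 16 passed, all lower, where 7.43% of all genes did. They were Col4a1 (-1.01 ± 0.18), F11r (-1.06 ± 0.24), C3 (-1.20 ± 0.30) and Vcam1, which fell from 568 to 116 CPM (-2.30 ± 0.57, edgeR adjusted p = 0.0463). Vcam1 and C3 are made by splenic macrophages among other cells, and 6 of the 12 macrophage and monocyte markers passed as lower too, whose part in these values was not tested. Icam1, the main ligand of LFA-1 and Mac-1, had 0.24 ± 0.10 (edgeR adjusted p = 0.125). In NK92MI cells 7 of 8 ligand genes passed, 6 of them higher, where 36.9% of all genes passed and 18.4% as higher. ICAM1 rose from 37.0 to 141 CPM, a log2 fold change of 1.93 ± 0.08 (edgeR adjusted p = 3.37e-09). VCAM1 (1.63 ± 0.22, at 1.62 and 5.05 CPM), ICAM2 (0.87 ± 0.17), F11R (0.69 ± 0.12), FN1 (0.27 ± 0.08) and C3 (2.21 ± 0.43, at 0.313 and 1.47 CPM) rose with it. ICAM5 fell by 1.45 ± 0.31 on the log2 scale. The median was 0.78 over the 8 ligand genes and -0.01 over all genes tested.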

How the data were processed

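RNA-seq of sorted splenic NK cells (3 WT and 3 KO libraries) and of NK92MI cells (3 DMSO and 3 BIX-01294 libraries) was used as raw counts per gene symbol, deposited by the authors without normalization. Polyadenylated RNA was sequenced. Per the submitters' processing notes and the methods, the authors used fastp 0.23.4 for trimming, STAR 2.7.11b for alignment with up to 2 mismatches (GRCm38/mm10 for mouse, GRCh38/hg38 for human reads) and HTSeq 2.0.3 for counting. The annotation release and the strand setting are not given in the sources used here, and the dose and time of BIX-01294 are stated for the NK92MI cell assays but not for these libraries. Samples were grouped by their titles, since the genotype label of the KO samples names another gene (Ezh2). The columns of the human controls could not be tied to single DMSO samples, so these entered as a group and are called DMSO columns. Library totals (25891680 to 37438868 in mouse, 16579469 to 17165446 in human) leave counting error small for all rows but ITGA2 and the second Itgam row.

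Each species was fitted over its whole table with edgeR 4.0.16 (R 4.3.3) by its quasi-likelihood test (TMM normalization, rows kept by filterByExpr), with Benjamini-Hochberg adjustment over all genes tested. A gene passed at an adjusted p under 0.05. The biological coefficient of variation was 18.2% in mouse and 7.55% in human. At the study's thresholds (adjusted p under 0.01, absolute log2 fold change over 0.5) edgeR called 0 mouse genes, against 2080 higher and 2639 lower at an unadjusted p under 0.05 and 1499 called by DESeq2 1.42.0 at the study's thresholds. Where symbols repeat, the row with the most counts kept the symbol. Levels per kb used the principal transcript of GENCODE M21 or v44, and ratios used counts with 0.5 added. The script was tested on simulated data. Alternatives were other scalings and filters, DESeq2, limma 3.58.1 (voom), leaving out each library and the replicate number as a block. Genes named are the integrin genes, EHMT2, the beta 1 gene, up to 8 genes of each of the 4 integrin-related lists that passed, and the 3 genes nearest in level. Tln1, Fermt3, Icam1, SKAP2, the marker genes CSF1R, CD14, Cd3g, Cd4, Tnfsf10 and Inpp4b, and the genes of opposite sign in the closing section were named in addition after their values were seen. Genes and lists were chosen with earlier results of these data known.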

Additional observations from a re-analysis of the deposited data

Results flagged for a closer look

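The experiments in mouse and in NK92MI cells used different species and different ways to lower EHMT2 activity. Some genes of the integrin lists had log2 fold changes of opposite sign, with every KO library on one side of every WT library and every BIX-01294 library on the other side of every DMSO library. Groups that did not overlap were also seen for 19.1% of all mouse genes as higher and 19.3% as lower, and for 24.1% and 23.9% of human genes. The differences between the experiments were not tested. Among these genes Vcam1, C3 and F11r passed the edgeR test in both experiments, lower in KO and higher under BIX-01294, with differences of -3.929, -3.41 and -1.745. Their edgeR adjusted p in mouse was 0.0463, 0.0461 and 0.0417. Without WT replicate 1, WT replicate 3, KO replicate 2 or KO replicate 3, the ligand list had 0 genes passing. VCAM1 and C3 were scarce in NK92MI, at 1.62 and 0.313 CPM in DMSO and 5.05 and 1.47 CPM under BIX-01294. Vcam1 varied in WT (568 ± 382 CPM, mean ± SD), and the part of macrophages in it was not tested. The other genes of opposite sign missed the threshold in at least 1 experiment. Fn1 differed by -2.639 (edgeR adjusted p = 0.0648 in mouse and 0.0132 in human). Itgal, at 0.61 in KO and -0.34 under BIX-01294, differed by 0.9462 (0.0627 and 0.00037 by edgeR), Skap1 by 0.9247 (0.092 and 0.000398), Itgb7 by 0.5651 (0.0429 and 0.125) and Rassf5 by 0.2769 (0.134 and 0.291). The mouse values are on the TMM scale. When the libraries were scaled to the NK cell markers, Itgal was at -0.19 (edgeR adjusted p = 0.43), where the median of all genes tested was -0.82. Those markers were themselves higher in KO. Relative to the median, Itgal was at 0.59 with TMM and 0.63 with the marker scaling.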

How the results depend on the processing

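Of the 60 recomputed log2 fold changes in NK92MI cells, 57 kept direction and side of the threshold, and 3 of 5 integrin genes passed under every alternative at this threshold, against 0 at the study's thresholds. ITGB2, near 0, changed sign among the values without 1 library (-0.0554 to 0.0514), the ITGA2 to ITGA1 ratio ranged from -0.13 (without DMSO column 1) to 0.61, and other beta chains passing were 0 (without DMSO column 2 or DMSO column 3) to 2 (without BIX-01294 replicate 2). In mouse, 62 of 88 kept both, 13 newly passed, 4 no longer passed and 9 changed sign. The count of rows passing, 1, was 0 at the study's thresholds, at which edgeR called no mouse gene and DESeq2 called Itgam and Itgal, 2 with library totals only, without a filter and with limma-voom, 3 with DESeq2 and 0 to 4 when 1 library was left out, namely 4 without WT replicate 2, 3 without KO replicate 1 and 0 without any other library. The number of genes called over the whole table moved with it and was 1565 with all libraries, 99 without WT replicate 1, 14 without WT replicate 3, 0 without KO replicate 2 or KO replicate 3, 2032 without KO replicate 1 and 3530 without WT replicate 2. Log2 fold changes without 1 library were 0.58 to 0.69 for Itgam, 0.52 to 0.77 for Itgal, 0.43 to 0.58 for Itgb2, 0.40 to 0.90 for Itga2 and -0.10 to 0.28 for Itga1, whose sign changed without WT replicate 2, WT replicate 3 or KO replicate 2, and the Itgam to Itgal ratio differed by -0.12 (without KO replicate 1) to 0.14 (without KO replicate 2). The Itgam to Itgb2 difference, 0.14, was 0.08 without KO replicate 1 and the Itgal to Itgb2 difference, 0.12, was 0.08 without WT replicate 1 or KO replicate 2 and 0.20 without KO replicate 1, while the Itga2 to Itga1 difference, 0.57, was 0.12 to 0.97 (without WT replicate 1 and WT replicate 2). Itgb2 newly passed with library totals only (0.49), no filter (0.49), limma-voom (0.48) and DESeq2 (0.47), and Itgal with DESeq2 (0.60). Libraries scaled to the NK cell markers gave -0.19 for Itgam, -0.35 for its second row, -0.19 for Itgal, -0.33 for Itgb2, -0.16 for Itga2 and -0.85 for Itga1, of which Itga1 alone passed (edgeR adjusted p = 0.0473). The median of all genes tested was -0.82 on that scale, whose reference markers were themselves higher in KO. Under that scaling 8911 genes were called, 35 of them higher, against 1565 and 585 with TMM, while DESeq2 called 3092. DESeq2 passed 5 rather than 1 of the other alpha chains, 4 rather than 2 activation genes and 7 rather than 4 ligand genes. It called 22.2% of all genes it tested, against 11.9% for edgeR. With 1 library left out these lists had 0 to 4 alpha chains, 0 to 2 beta chains, 0 to 5 activation genes and 0 to 7 ligand genes. The highest of these counts came without WT replicate 2, and the cause was not tested. Adding both Itgam rows, an alternative chosen after seeing the data, left Itgam at 0.62.

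With the replicate number as a block in the mouse fit, 4 rows passed, with Itgal at 0.61, Itgb2 at 0.48 and Itga2 at 0.63 beside Itgam, and 3222 genes were called. Same-numbered WT and KO libraries shared deviations at correlations of 0.281, 0.352 and -0.188. KO replicate 1 was about as close to WT replicate 3 (0.284) as to its own number, and KO replicate 3 was closest to WT replicate 2 (0.199). With 3 libraries per group these correlations cannot decide whether same-numbered libraries belong together, and the labels give only the number. No paired analysis was possible in NK92MI cells because the control columns carry no link to numbered samples. Depth limits ITGA2 and the second Itgam row, whose counts stay between 8 and 34.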
